A study of Mus musculus with 9 samples.

Results

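The genes described here are 32 mouse genes of inflammatory signalling: cytokines, the receptors that sense cytokines and microbes, subunits of the transcription factor NF-kB, enzymes of lipid mediators and nitric oxide, vascular adhesion molecules, and acute-phase and complement proteins. Members were chosen by gene symbol, with earlier results of these data known. A probe measured 30 of the 32, among 19084 named genes on the array; Nfkb1 and C3 were not matched to a probe and were not analysed here. Where a gene had several probes, as only Tslp did among these, the probe with the highest mean over the 9 arrays stood for it. The tissue was the olfactory mucosa, where olfactory neurons, their supporting cells, glands and vessels lie together in the nose, of male C57BL/6 mice aged 6 to 8 weeks. The control mice were given saline for 2 weeks. The D1 mice were given dexamethasone, a synthetic agonist of the glucocorticoid receptor, for 1 day. The WK2 mice were given it every day for 2 weeks by intraperitoneal injection at 1 mg/kg, the only dose the labels state. Each group had 9 mice, 27 in all, and gave 3 arrays, for which RNA was picked by its expression of olfactory marker protein. D1 mice and their controls also differed in how long they were treated. The labels do not tie the 3 arrays of a group to 3 mice. Every p-value therefore measures the spread among arrays, part of which may be technical.

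Interleukin-1, tumour necrosis factor and ligands of the Toll-like receptors act on cells through adaptors such as MyD88 and release NF-kB, a dimer of Rel-family subunits, to the nucleus. NF-kB then raises transcription of cytokine genes, of cyclooxygenase-2 and of endothelial adhesion molecules. Epithelia such as the nasal lining also store or secrete the alarmins IL-33 and TSLP, which act on mast cells, eosinophils and innate lymphoid cells. Glucocorticoids are used against nasal inflammation, and the ligand-bound receptor is known to lower NF-kB and AP-1 activity at many of these genes.

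RefSeq's promoter table for mouse build GRCm38.p6 held 21 of the 32 genes, and 25 start sites for them. The 250 bases before each start were searched on both strands for 4 sets of letters. These were GGGANNTTCC for NF-kB, TGANTCA for AP-1, TGTTCT for the glucocorticoid receptor core hexamer and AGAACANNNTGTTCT for its palindrome, which contains that hexamer. Of the cytokine genes described first, Il6 and Il1a are shown because their windows held a match. Il33 and the receptor gene Il1r1 are shown because they came nearest to passing the test after 2 weeks. Where a gene had 2 starts, as Il33 and Il1r1 did, the outermost is shown. Each reads 5′ to 3′ towards the start, and capitals mark the matches.
Il6, chr5:30012864-30013113 (plus strand): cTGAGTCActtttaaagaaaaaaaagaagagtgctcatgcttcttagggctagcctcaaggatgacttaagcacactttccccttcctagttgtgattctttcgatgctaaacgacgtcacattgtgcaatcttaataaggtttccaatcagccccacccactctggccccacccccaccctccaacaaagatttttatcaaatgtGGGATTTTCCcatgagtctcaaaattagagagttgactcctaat
Il1a, chr2:129309973-129310222 (minus strand): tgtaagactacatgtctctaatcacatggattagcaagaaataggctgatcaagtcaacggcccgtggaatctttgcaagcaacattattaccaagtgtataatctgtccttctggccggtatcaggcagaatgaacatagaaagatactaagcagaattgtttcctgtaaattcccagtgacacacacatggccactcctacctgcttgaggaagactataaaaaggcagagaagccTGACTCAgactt
Il33, chr19:29924863-29925112 (plus strand): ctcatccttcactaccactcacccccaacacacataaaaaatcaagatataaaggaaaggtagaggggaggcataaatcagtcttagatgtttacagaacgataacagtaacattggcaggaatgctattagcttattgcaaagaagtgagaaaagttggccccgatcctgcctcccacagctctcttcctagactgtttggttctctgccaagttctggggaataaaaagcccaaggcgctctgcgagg
Il1r1, chr1:40224830-40225079 (plus strand): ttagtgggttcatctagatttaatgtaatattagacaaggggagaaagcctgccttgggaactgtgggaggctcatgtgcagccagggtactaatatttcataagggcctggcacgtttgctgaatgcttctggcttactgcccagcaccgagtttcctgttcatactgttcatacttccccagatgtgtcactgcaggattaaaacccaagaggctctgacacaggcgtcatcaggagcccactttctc
The Il6 window held an AP-1 match that begins 249 bases before the start and an NF-kB match that begins 44 bases before it, and these do not overlap. The Il1a window held an AP-1 match that begins 12 bases before the start. The Il33 and Il1r1 windows shown held none of these letters, while a window of Il1r1's other start held the core hexamer. Among the 25 windows, 4 held the NF-kB letters, in the 3 genes Il6, Csf1 and Nfkb2, against 1.21% of all 32851 windows in the table. The AP-1 letters were in 6 of 25 windows against 6.75% of all, the core hexamer in 4 of 25 against 16.1%, and the palindrome in 0 of 25 against 0.00913%. These are matches of letters and say nothing of binding.

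All values are probe intensities on a linear scale, and 1 gene's intensity is not comparable with another's. Tests were run on log2(intensity + 50) with limma over 23631 features, and a gene passed at a Benjamini-Hochberg adjusted p under 0.05; a log2 difference on this scale understates the change of dim genes. The median probe stood between 1202 and 1447 per array, and 3 arrays a group limit the precision of every value. In WK2 the median of all features lay 0.14 above control on the log2 scale, 0.04 after median centring and 0.01 after quantile normalization. For some genes and lists the difference is therefore also given less the median difference of the 500 features nearest in mean intensity. Where that is not said, a difference is as fitted and holds this shift. The tissue's markers were bright. Omp of mature olfactory neurons stood at 337460.5 ± 64145 (SD, n = 3) in control, Gng13 at 142003 ± 14675, and Cyp2g1 of sustentacular cells at 425252 ± 48522. RNA was picked by olfactory marker protein, which Omp encodes, so the Omp level is no check of the tissue. Control replicate 2 and WK2 replicate 3 had the lowest array weights in limma, 0.233 and 0.265 beside 0.847 to 2.50 on the others, so counts of calls are also given without these arrays. Il6 and Nos2 lay among the dimmest 25% of probes on every array, so their values are near the bottom of the measured range. Pla2g2a, Sele and Selp lay there on some arrays.

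After 2 weeks of dexamethasone 11 of the 12 measured cytokine genes lay above control, beside 62.7% of all features, though none of them passed the test. Among the 11 was Il18, which differed by 0.00 and changed sign in 5 of 21 alternatives. Their median log2 difference was 0.51, and 0.40 less the features of like intensity. Under quantile normalization, median centring and cyclic loess the cytokine median was 0.40, 0.40 and 0.45, with 11, 10 and 11 of 12 above control. The genes with 3 WK2 values above all 3 control values were Il33, Tslp, Il1a, Il1b, Tnf, Il6 and Lif, all cytokines. The interleukin-1 receptor gene Il1r1 lay on the other side, with Relb and Sele. Of all features 23.8% stood apart from control on the higher side and 13.8% on the lower.

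Over all 30 measured genes 24 lay above control, as did 62.7% of all features, and the median difference was 0.25 beside 0.14 over all features. Less features of like intensity the median was 0.07, with 18 of 30 above 0. None of the 30 passed in limma, where 1.61% of all features did, 0.432% higher and 1.18% lower. That share is 102 features higher and 278 lower, or 221 and 1324 with median centring, and the total of 380 ran from 1 to 953 with 1 array left out and was 0 without control replicate 2 and WK2 replicate 3. At an unadjusted p under 0.05 there were 8 of 30, against 29.7% of all features. The 3 WK2 and 3 control values did not overlap in 10 of 30 genes, against 37.6% of all features. Of these 7 were higher and 3 lower, beside 23.8% and 13.8% of all features. These shares are near the background. Without control replicate 2 and WK2 replicate 3 none of the 30 passed either and their median was 0.21.

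**Figure D1:**
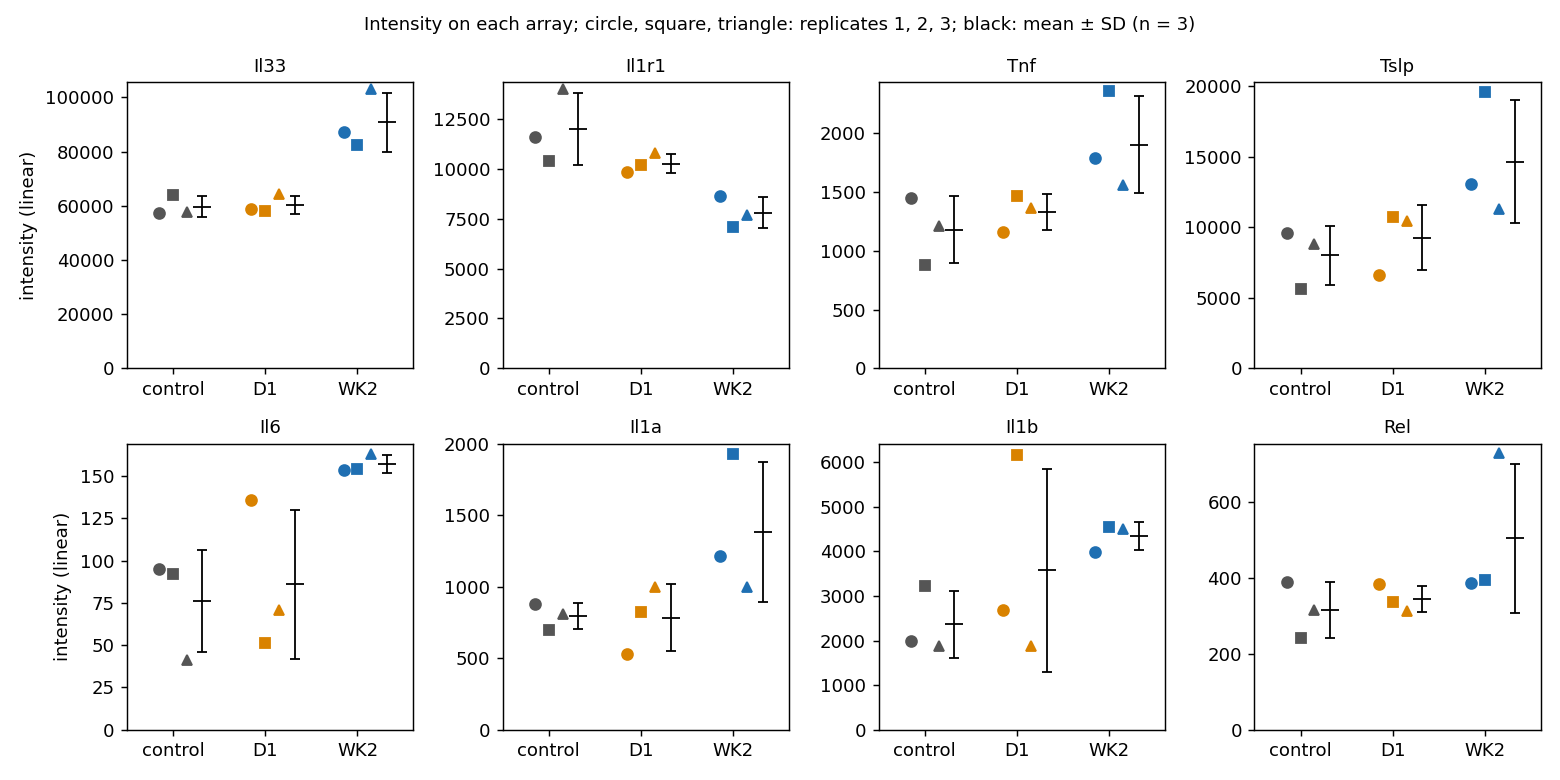
Linear intensity on each of the 9 arrays for 8 genes, with circles, squares and triangles for replicates 1, 2 and 3 of the control, D1 and WK2 groups and black bars for the mean ± SD (n = 3); every axis starts at 0. The WK2 values of Il33, Tnf, Tslp and Il6 lie above all control and D1 values, and those of Il1r1 lie below them.

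Il33 encodes an alarmin of the IL-1 family that epithelial and basal cells hold in their nuclei. Its intensity was 57492, 64046 and 57648 on the control arrays, 58685, 58214 and 64183 on the D1 arrays and 87096, 82379 and 103238 on the WK2 arrays. The 3 WK2 arrays were above all the others, and the control and D1 arrays covered nearly the same range. The difference of WK2 from control was 0.60 ± 0.14 (SE), which is 1.52-fold, with a 95% interval of 0.28 to 0.92 and an adjusted p of 0.0578 in limma. Less features of like intensity it was 0.39. Over the 21 alternatives tried the difference ran from 0.44 to 0.67 and the adjusted p (limma) from 0.0187 to 0.148, passing with array weights and with a pseudocount of 500.

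Tslp encodes thymic stromal lymphopoietin, an epithelial cytokine that drives type 2 responses. Its brightest probe gave 9593, 5610.3 and 8829 on the control arrays, 6620.4, 10749 and 10443 on the D1 arrays and 13052, 19596 and 11317 on the WK2 arrays. All WK2 values exceeded the control and D1 values, though WK2 replicate 2 stood well above the other WK2 arrays. The difference of WK2 from control was 0.86 ± 0.28 (SE), or 1.82-fold, with an interval of 0.23 to 1.50 and an adjusted p of 0.0928 (limma). The other probes of Tslp, both dim with means of 196 and 53.2, gave log2 differences of 0.31 and 0.28. Dim features were shifted upward as a body. The median of features of like intensity was 0.29 for Nos2 (mean 184) and 0.24 for Il6 (mean 106). The 2 dim probes thus lay near that shift, and their direction adds little to the bright probe.

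In bulk RNA, more cells of a kind and more RNA per cell cannot be told apart. Summed markers of the epithelial cells were also higher in WK2, through their brightest genes. The summed intensity of 5 basal cell markers was 32360 to 33010 in control, 32690 to 36710 in D1 and 43960 to 47220 in WK2. The sum of 6 sustentacular markers was 1063000 to 1330000 in control and 1517000 to 1669000 in WK2. The 6 sustentacular markers stood at 1316000 to 1542000 in D1. Over the single basal markers 3 of 5 lay above control in WK2, with a median log2 difference of 0.04. The keratins Krt14 and Krt5, the largest parts of that sum in WK2, differed by 0.66 and 0.60. The other 3 basal markers, named after their values were seen, did not follow: Neurod1 differed by 0.04, Trp63 by -0.09 and Icam1 by -0.46. Of 6 sustentacular markers 5 lay above control and 3 lay above features of like intensity, and Muc2, named likewise, differed by -0.51. The rise was not particular to these cells. The sum of 8 mature olfactory neuron markers was 1021000 to 1190000 in control and 1261000 to 1366000 in WK2. Of these 8 markers 5 lay above control and 4 above features of like intensity. The sum of 7 mast cell markers, most of it the histidine decarboxylase gene Hdc, was 37440 to 42960 in control and 56790 to 87020 in WK2, and 7 of 7 lay above control. Their part in the Il33 and Tslp values was not tested.

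Il1a and Il1b encode the agonists of the type 1 interleukin-1 receptor. Il1a stood at 878, 697 and 811 on the control arrays, 531, 821 and 998 on the D1 arrays and 1216, 1931 and 997 on the WK2 arrays. The WK2 arrays lay above every control array, but the lowest WK2 array lay just under D1 replicate 3. The WK2 difference from control was 0.71 ± 0.27 (SE) with an adjusted p of 0.122 (limma), and 0.45 without WK2 replicate 2. Il1b stood at 1993, 3233 and 1867 on the control arrays, 2681, 6173 and 1872 on the D1 arrays and 3978, 4544 and 4493 on the WK2 arrays. The WK2 arrays lay close together and above all control arrays, while D1 replicate 2 was the highest of all 9. The Il1b difference was 0.90 ± 0.38 (SE) in WK2 (adjusted p = 0.146, limma) and the largest of the 30 genes in that comparison.

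Tnf encodes tumour necrosis factor, and Il6 the interleukin that signals through gp130. Tnf stood at 1451, 881 and 1209.8 on the control arrays, 1161, 1466 and 1363 on the D1 arrays and 1788, 2361 and 1562 on the WK2 arrays. Every WK2 array was above every control and D1 array. Its difference from control was 0.67 ± 0.21 (SE), an interval of 0.19 to 1.15, with an adjusted p of 0.0886 (limma). Il6 stood at 95.0, 91.8 and 41.3 on the control arrays, 136, 51.4 and 70.5 on the D1 arrays and 154, 154 and 163 on the WK2 arrays. The WK2 arrays were tightly grouped above the others, while the control and D1 values were scattered. The difference was 0.75 ± 0.25 (SE) with an adjusted p of 0.0943 (limma), and it was 0.19 with a pseudocount of 500.

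The remaining cytokines differed less. Lif, leukaemia inhibitory factor, was 284, 267 and 279 on the control arrays and 422, 293 and 322 on the WK2 arrays, which did not overlap, with a difference of 0.26 ± 0.17 (SE) -0.04 less features of like intensity, and 0.13 without WK2 replicate 1. Osm, oncostatin M, differed by 0.36 and Csf2, the granulocyte-macrophage factor, by 0.41. Leaving out control replicate 2 took Osm to 0.05 and leaving out control replicate 1 took it to 0.56. Csf2 stood at 0.15 without WK2 replicate 3. Less features of like intensity Osm was at 0.42 and Csf2 at 0.19. Csf1, which sustains macrophages, differed by 0.10, Il18 by 0.00 and Csf3, the granulocyte factor, by -0.07. The groups overlapped in these 5. Csf3 lay at 0.03 without control replicate 2 and 0.06 with array weights. For Il18 the interval was -0.44 to 0.44 and for Csf1 -0.29 to 0.49. Il18 lay at -0.18 without WK2 replicate 3.

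Il1r1, the signalling receptor of IL-1, stood on the other side. Its intensity was 11624, 10409 and 14001 on the control arrays, 9839, 10194 and 10779 on the D1 arrays and 8647, 7095 and 7690.2 on the WK2 arrays. The WK2 arrays were the 3 lowest of the 9, and the D1 arrays lay within or below the control range. The difference of WK2 from control was -0.61 ± 0.15 (SE), 1.53-fold lower, with an interval of -0.96 to -0.27 and an adjusted p of 0.0625 (limma). Less features of like intensity it was -0.53. It ran from -0.71 to -0.50 over 21 alternatives, with an adjusted p of 0.0225 to 0.151 (limma), and passed in 3 of them, median centring, array weights and a pseudocount of 500. Summed over 7 endothelial markers, intensity was 15620 to 17470 in control and 12380 to 16170 in WK2, with 6 of 7 below control, and the part of vessel content in the Il1r1 value was not tested.

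The sensors of microbes differed less from control than Il1r1 did. Tlr2, which recognises bacterial lipoproteins, differed by 0.23 ± 0.20 (SE) in WK2, Tlr4, the lipopolysaccharide receptor, by 0.23 ± 0.21 (SE) and Tlr7, which binds single-stranded RNA, by 0.31 ± 0.23 (SE). Less features of like intensity these were -0.03, -0.03 and 0.03. Without WK2 replicate 3 they were 0.10, 0.13 and 0.08. Myd88, the adaptor that Il1r1 and these receptors share, had 6289.8 ± 820.5 (SD, n = 3) in control against 6818 ± 732 in WK2, a difference of 0.12 ± 0.16 (SE) with an interval of -0.23 to 0.47.

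Of the 3 measured NF-kB subunits, Rel, the c-Rel gene of lymphoid and myeloid cells, had the largest difference in WK2. It stood at 389, 242 and 315 on the control arrays, 383, 335 and 314 on the D1 arrays and 388, 395 and 729 on the WK2 arrays. WK2 replicate 3 was far above the others, and WK2 replicates 1 and 2 lay at about the level of control replicate 1. The difference was 0.57 ± 0.24 (SE) with an adjusted p of 0.153 (limma), and 0.29 without WK2 replicate 3. Less features of like intensity it was 0.27. Relb, of the alternative pathway, was 2577, 3093 and 2922 in control and 2472, 2388 and 2291 in WK2. Every WK2 value was below every control value, with a difference of -0.26 ± 0.15 (SE) and an adjusted p of 0.252 (limma). Nfkb2, whose p100 product pairs with RelB, differed by 0.06 ± 0.23 (SE), and lay below 0 in 5 of 21 alternatives, quantile normalization, median centring and cyclic loess among them.

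Ptgs2 encodes cyclooxygenase-2, the inducible enzyme of prostaglandin synthesis. It stood at 516, 304 and 419 on the control arrays, 562, 474 and 295 on the D1 arrays and 649.6, 297 and 1946 on the WK2 arrays. WK2 replicate 3 was the highest of the 9 arrays by far, and WK2 replicate 2 was among the lowest, so the groups overlapped. The difference in WK2 was 0.79 ± 0.52 (SE), with an interval of -0.37 to 1.95 and an adjusted p of 0.312 (limma). Without WK2 replicate 3 it was 0.12, and without WK2 replicate 2 it was 1.38, so single arrays decide the value. Ptges, the prostaglandin E synthase that works with it, differed by 0.06 ± 0.22 (SE), and lay below control with median centring.

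The 5-lipoxygenase Alox5, which starts leukotriene synthesis, differed by -0.14 in WK2, or 0.02 without control replicate 2 and 0.01 with array weights, and its activating protein Alox5ap by 0.46 ± 0.33 (SE). Pla2g2a, a secreted phospholipase A, differed by 0.37, and by 0.16 without control replicate 2. Nos2, the inducible nitric oxide synthase, had 185 ± 34.5 (SD, n = 3) in control against 184 ± 16.1 in WK2, with an interval of -0.34 to 0.34. In these 4 genes the WK2 and control values overlapped, and Nos2 took either sign across scalings. Less features of like intensity Alox5 was at -0.34, Alox5ap at 0.51, Pla2g2a at 0.08 and Nos2 at -0.29.

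Among adhesion molecules that endothelium displays to leucocytes, Sele, E-selectin, was 321, 273 and 298 in control and 225, 222 and 244 in WK2. All WK2 values lay below all control values, with a difference of -0.31 ± 0.17 (SE), -0.58 less features of like intensity, and an adjusted p of 0.244 (limma). On each WK2 array Sele was among the dimmest 25% of probes. Selp, P-selectin, differed by 0.03 ± 0.19 (SE), below 0 under quantile normalization, median centring and cyclic loess, and Vcam1 by 0.36 ± 0.39 (SE). Leaving out 1 control array moved Vcam1 to 0.05 (replicate 1), 0.78 (replicate 2) or 0.24 (replicate 3). Saa3, an acute-phase serum amyloid made in many tissues, stood at 799.9 ± 40.0 in control, 719 ± 79.5 in D1 and 708 ± 149 (SD, n = 3) in WK2, with a difference of -0.18 ± 0.17 (SE) in WK2.

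**Figure D2:**
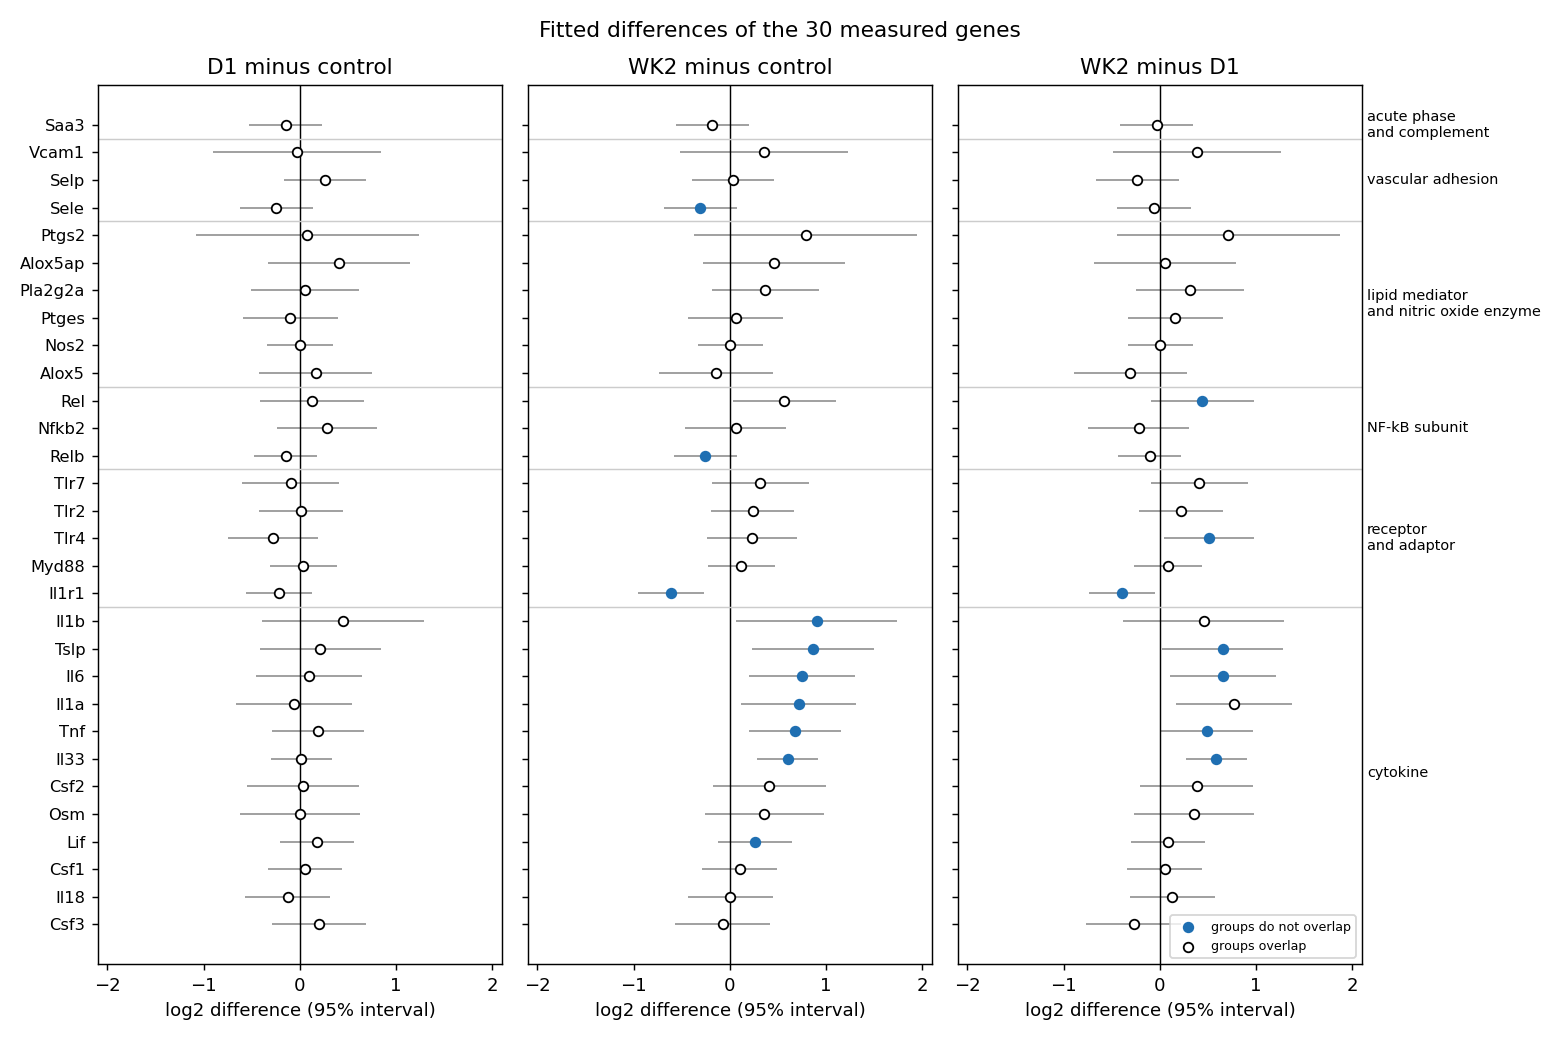
Fitted log2 differences of the 30 measured genes, ordered by role, for D1 minus control, WK2 minus control and WK2 minus D1; lines are 95% intervals and filled points mark genes whose 3 values in each group do not overlap. In WK2 minus control 7 of 12 cytokines are filled on the higher side, where 23.8% of all features would be, and Il1r1, Relb and Sele on the lower side, where 13.8% would be, while no gene is filled in D1 minus control.

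After 1 day of dexamethasone the same genes stood close to control. Of 30 genes 20 lay above control and 10 below, where 56.6% of all features lay above, and the median of 0.03 was that of all features. None passed in limma, as 0% of all features did, none had an unadjusted p under 0.05 against 2% of all features, and the smallest adjusted p was 1.00. In 0 of 30 genes were the groups apart, against 10.1% of all features, 4.92% higher and 5.19% lower. The 95% interval of the D1 difference lay within 1 log2 unit of 0 for 27 of the 30, the exceptions being Il1b, Ptgs2 and Alox5ap.

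**Figure D3:**
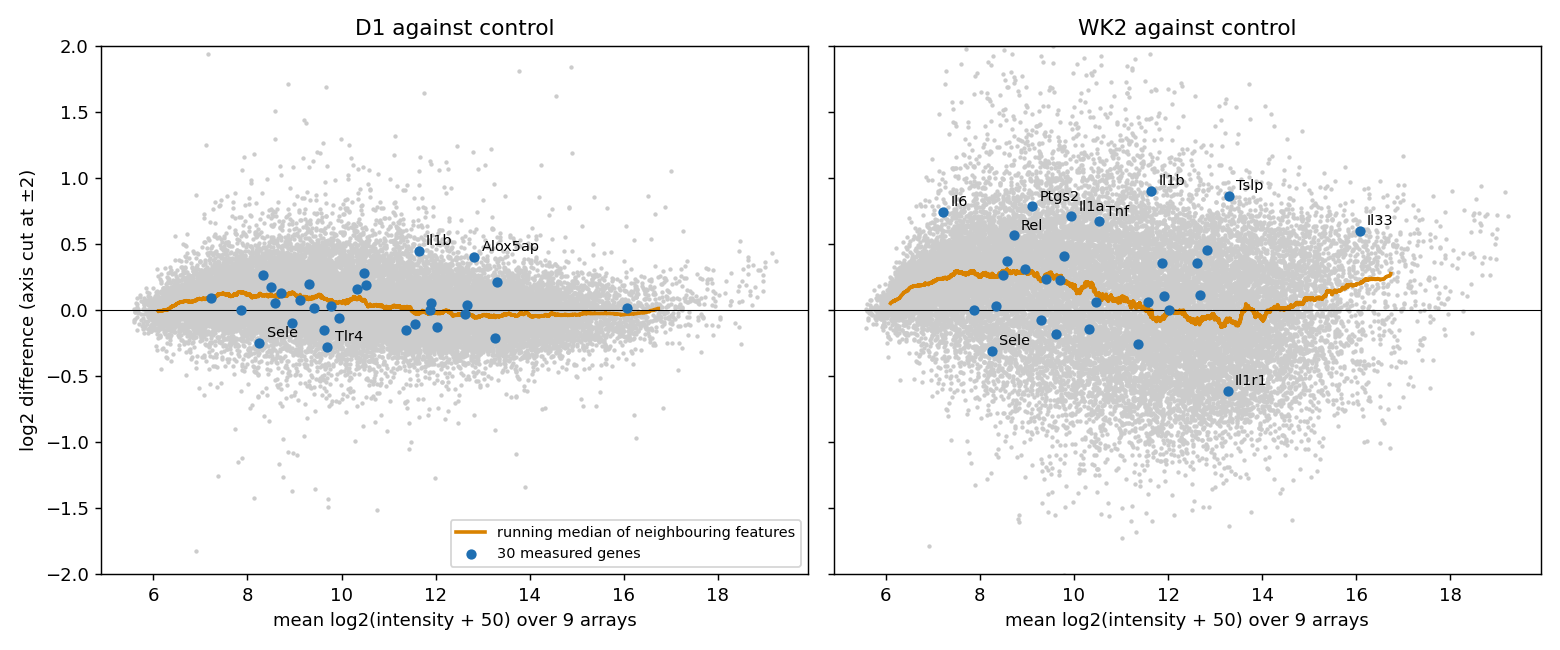
Log2 difference against mean log2(intensity + 50) for all features (grey) and the 30 measured genes (blue), with the running median of neighbouring features (orange) for D1 and WK2 against control; the vertical axis is cut at 2 log2 units either way. In WK2 dim features lie above 0 as a body, and Il33, Tslp, Il1b, Tnf, Il1a and Il6 lie above the running median while Il1r1 lies below it.

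At 1 day 10 of 12 cytokine genes lay above control, beside 56.6% of all features, with a median of 0.07. Under quantile normalization and median centring 7 of 12 did so, and under cyclic loess 9 of 12. The 30 genes ran from -0.28 for Tlr4 to 0.45 for Il1b. Il33 differed by 0.02 ± 0.14 (SE), with an interval of -0.30 to 0.33, and Il6 by 0.09 ± 0.25 (SE). Tnf differed by 0.19 ± 0.21 (SE), Tslp by 0.21 ± 0.28 (SE) and Il1a by -0.06 ± 0.27 (SE). Il1b had the largest D1 difference, 0.45 ± 0.38 (SE), and it rested on 1 array: without D1 replicate 2 it was -0.03. Alox5ap differed by 0.40 ± 0.33 (SE), and by 0.04 without that array. On the lower side the 3 largest differences were of Tlr4 at -0.28 ± 0.21 (SE), Sele at -0.25 ± 0.17 (SE) and Il1r1 at -0.22 ± 0.15 (SE). Ptgs2 stood at 444 ± 136 in D1 against 413 ± 106 (SD, n = 3) in control, and Nos2 at 183 ± 13.5.

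Some members varied together among arrays of 1 group. Of the 30 genes D1 replicate 2 held the highest of its group's 3 values in 20, and D1 replicate 3 the lowest in 17. The median probe was also highest on D1 replicate 2, at 1387 against 1294 and 1372 on D1 replicates 1 and 3. The same count over all features was not taken, so an array-wide offset is not separated from these counts. Control replicate 2 held the highest value in 12 and the lowest in 14, and no array of WK2 held more than 12 of either. The spread was widest for Vcam1 in control (coefficient of variation 56.3%), Il1b in D1 (63.9%) and Ptgs2 in WK2 (90.1%), beside medians of 18.1%, 22.9% and 15.4% over the 30 genes. Vcam1 stood at 3763, 10451 and 4873 on the control arrays, 5002, 9475 and 3825 on the D1 arrays and 6959, 7152 and 8137 on the WK2 arrays. Alox5ap, an adaptor abundant in granulocytes, stood at 4818, 8923 and 4724 on the control arrays, 6810.1, 12970.4 and 5366 on the D1 arrays and 8346, 8396 and 7559.9 on the WK2 arrays. In control and in D1, replicate 2 was the highest array for Vcam1, Alox5ap and Il1b alike.

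Most neutrophil markers were also highest on those arrays: 10 of 11 on control replicate 2, with S100a8 the exception, and 11 of 11 on D1 replicate 2. In WK2 9 of 11 were highest on replicate 1, where Il1b and Vcam1 had their lowest WK2 values and Alox5ap its middle one. The summed intensity of 11 measured neutrophil markers was 163800, 417500 and 213800 on the control arrays, 301000, 700100 and 252000 on the D1 arrays, and 480200, 419200 and 336000 on the WK2 arrays. None of the 11 was below the lowest 5% of probes on every array; Cxcr2 was the dimmest. Ltf and S100a9 gave the largest parts of the sum. Ltf is also made by nasal glands. Their part in the Il1b, Alox5ap and Vcam1 values was not tested. The WK2 difference of Il1b was 1.15 without control replicate 2, and that of Alox5ap was 0.76 without it. The sum of 8 macrophage and monocyte markers was 53640 to 57150 in control and 48960 to 71860 in WK2, and 3 of 8 were highest on control replicate 2 and 8 of 8 on D1 replicate 2. The sum of 3 erythroid markers was 103000, 231000 and 119400 on the control arrays, 201200, 248900 and 92570 on the D1 arrays and 313300, 149000 and 262500 on the WK2 arrays, with all 3 highest on replicate 2 in control and in D1. Lymphocyte markers were also often highest on these arrays. For B lymphocytes it was 3 of 4 on control replicate 2 and 4 of 4 on D1 replicate 2. For T lymphocytes it was 2 of 6 and 5 of 6. The part of these cells in the values was not tested either.

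**Figure D4:**
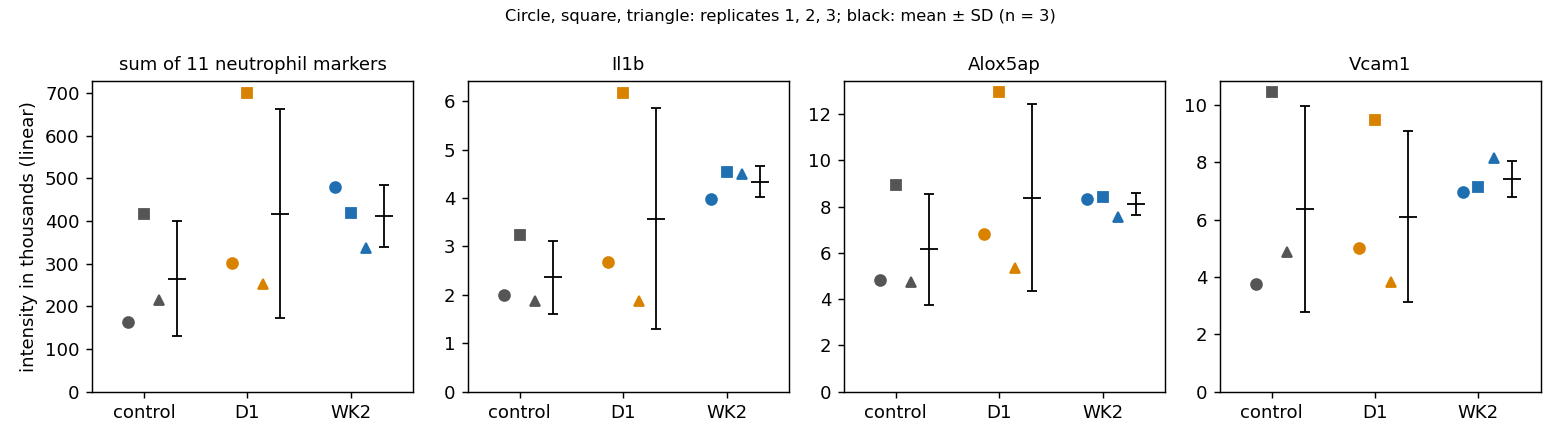
Summed intensity of 11 neutrophil markers and the intensity of Il1b, Alox5ap and Vcam1 on each array, on linear axes from 0; circles, squares and triangles are replicates 1, 2 and 3 and black bars the mean ± SD (n = 3). Replicate 2 is the highest array in the control and D1 groups in all 4 plots.

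The comparison of WK2 with D1 asks whether the longer treatment differed from the short one, and it shares the WK2 arrays with the comparison above. Of 30 genes 22 lay above D1, as did 61.6% of all features. None of 30 passed in limma, where 0.0931% of all features did, 0.0296% higher and 0.0635% lower. Those are 7 and 15 features, or 15 and 60 with quantile normalization and 10 and 40 with median centring. At the looser limit 7 of 30 had an unadjusted p under 0.05 against 19.2% of all features. In 7 of 30 the 2 groups did not overlap, against 31.4% of all features. In 6 genes the WK2 values lay above all D1 values and in 1 below, against 18.7% and 12.6% of all features. Those above were Il33, Tslp, Il6, Tnf, Tlr4 and Rel, and Il1r1 lay below. Il33 differed by 0.59 ± 0.14 (SE) (adjusted p = 0.131, limma), Il1a by 0.77 ± 0.27 (SE), Il6 by 0.65 ± 0.25 (SE) and Il1r1 by -0.40 ± 0.15 (SE). Tnf differed by 0.49 ± 0.21 (SE) and Tslp by 0.65 ± 0.28 (SE). The cytokine median was 0.42, with 11 of 12 above D1, or 10 of 12 under quantile normalization and cyclic loess. Tlr4 stood at 592, 669.8 and 675 in D1 and 903, 836 and 1089 in WK2, while its control values, 851, 1032 and 562, overlapped those of WK2 and D1. In 5 genes, Il33, Tslp, Il6, Tnf and Il1r1, the WK2 arrays stood apart from both other groups on the same side, as they did in 21.8% of all features.

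Other genes of the same pathways were read from 8 lists of 98 measured genes, none of them a member. In limma 0 of 98 passed in either direction in each comparison. In WK2 27 of the 98 stood above control without overlap and 14 below, against 23.8% and 13.8% of all features. At an unadjusted p under 0.05 there were 26 of 98 in WK2 against control, 15 in WK2 against D1 and 2 in D1 against control, where 29.7%, 19.2% and 2% of all features did so. These counts lie near or below the background.

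The lists of receptors did not share a direction. All 9 measured receptors and ligands of the TNF, TSLP and colony-stimulating factor list lay below control in WK2, with a median of -0.35, and 1 of 9 lay above under quantile normalization and under cyclic loess. Il34, the second ligand of the macrophage receptor CSF1R, differed by -0.56 ± 0.17 (SE) (adjusted p = 0.0816, limma), Csf2rb, the common beta chain, by -0.79 ± 0.36 (SE) and Csf2ra by -0.41 ± 0.26 (SE). Of 11 genes of the IL-6 family list 6 lay above and 5 below, with a median of 0.04 that turned to -0.06 with median centring. Lifr, the receptor of LIF, had an intensity of 16058 ± 4041 (SD, n = 3) in control against 9298 ± 843 in WK2, a difference of -0.75 (adjusted p = 0.0685, limma). Il6ra, the binding chain of the IL-6 receptor, differed by -0.57, and the cytokine Clcf1 by 1.12. In the IL-1 and IL-18 list 7 of 9 lay above control, with a median of 0.39, or 0.14 less features of like intensity. Among them were Il18rap at 0.60, Il1rap, the co-receptor of Il1r1, at 0.45 and the inflammasome adaptor Pycard at 0.37. None of these passed.

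In the list of other Toll-like receptors and adaptors 13 of 17 genes lay above control in WK2, beside 62.7% of all features. Their median was 0.34, but 0.14 less features of like intensity, 0.19 with quantile normalization and 0.20 with cyclic loess. Ticam2, an adaptor of Tlr4, had 1612 ± 503 (SD, n = 3) in control against 3465 ± 663 in WK2 (difference 1.12 ± 0.26 (SE), adjusted p = 0.0551, limma). Tlr3, the sensor of double-stranded RNA, differed by 0.77 and the kinase Irak1 by -0.45. In the NF-kB list 5 of 11 lay above and 6 below, with a median of -0.19. The feedback inhibitors Nfkbia, which encodes IkB-alpha, and Tnfaip3, which encodes A20, differed by 0.61 ± 0.22 (SE) and 0.51 ± 0.18 (SE), and the kinase Ikbkb by -0.37 ± 0.14 (SE). These 3 were chosen by their p-values. In the whole list 5 of 11 genes had groups that did not overlap, against 37.6% of all features.

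Of 17 eicosanoid genes 12 lay above control and 5 below in WK2, with a median of 0.04 that was -0.06 with median centring. Pla2g10, a secreted phospholipase, stood at 3467 ± 119.6 in control, 2610.0 ± 499.9 in D1 and 2254 ± 139 (SD, n = 3) in WK2. Lta4h, which makes leukotriene B4, differed by -0.52 and Ptges3 by 0.40. Among 9 adhesion partners Itgb1, the integrin beta 1 chain, differed by 0.55, Itga4, its partner in binding Vcam1, by -0.69 and Itgal by 0.59. Of 15 complement and acute-phase genes 12 lay above and 3 below, with a median of 0.19. C1ra, a protease of the classical pathway, differed by -0.73 ± 0.16 (SE) (adjusted p = 0.0550, limma), Hc, complement C5, by 0.87 and Hp, haptoglobin, by 1.14.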

How the data were processed

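The authors deposited 1 table of intensity values for 26423 probes on 9 single-colour (Cy5) arrays; the sources used here do not name software, background correction or scaling. Intensities are linear, with 8 to 18 probes below 0 per array, as after background subtraction, and were used as deposited. Per the labels' protocols, RNA had an integrity number of at least 7. Probes were named through the platform annotation, updated by gene ID through RefSeq's GRCm38.p6 table (21825 probes matched): 21876 probes had 1 symbol, 0 several and 4547 none. One feature was kept per gene, giving 23631 with the unnamed probes, and no filter on low values was set. One linear model covered all 9 arrays (lmFit and eBayes of limma 3.58.1, run in R 4.3.3), with p-values adjusted over all features. The fit was tested on simulated data. For a single gene the smallest exact permutation p is 0.1 at 3 arrays a group, so none was run. Same-numbered arrays correlated from -0.282 to 0.136 in their deviations from group means. The labels give no pairing and none was used in the main fit. These correlations cannot exclude a batch shared by same-numbered arrays. The members, lists and pseudocount were chosen with earlier results of these data known. Named genes are all measured members, the 3 partner genes of each list with the smallest p in WK2 against control, and the brightest cell type markers. Alternatives were other normalizations, pseudocounts, filters, probe rules, moderation, weights, a replicate block, 2-group fits and leaving out arrays.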

Additional observations from a re-analysis of the deposited data

How the results depend on the processing

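The number of features called in WK2 against control was 380 and moved under most alternatives: 1419 with quantile normalization, 1545 with median centring, 682 with cyclic loess, 615 without the dimmest 25%, 2738 with array weights, 777 with a pseudocount of 500, 131 with one of 16, 0 in a fit of the 2 groups compared only, and 1 with the replicate block. Leaving out control replicates 1, 2 and 3 gave 9, 37 and 2, D1 replicates 15, 22 and 14, and WK2 replicates 953, 1 and 4, a range of 1 to 953, and leaving out control replicate 2 and WK2 replicate 3, chosen after seeing the data, gave 0. In WK2 against D1 the count was 22, with 75 under quantile normalization, 50 under median centring, 53 under cyclic loess, 37 without the dimmest 25%, 2 in the 2-group fit, 134 with array weights, 8 with the replicate block, 13 with a pseudocount of 500, 1 to 27 with 1 array left out and 2 without those 2 arrays. In D1 against control it was 0, or 0 to 1 with 1 array left out. Of the 30 members 0 were called in each comparison, except in WK2 against control with median centring (1, Il1r1), array weights (4, Il33, Il6, Tnf and Il1r1) and a pseudocount of 500 (2, Il33 and Il1r1). The replicate block called 0 members in each comparison. The median of the members ran from -0.06 to 0.12 in D1, 0.11 to 0.33 in WK2 and 0.10 to 0.40 in WK2 against D1 over 21 alternatives. In WK2 against control 21 of 30 members kept their direction in every alternative fitted, and 10 of 30 did so in D1 against control. Some alternatives cannot move a fitted difference, so a kept direction there was fixed in advance. These are trend moderation, the 2-group fit, the replicate block and leaving out an array of the group not compared. For Il6, Nos2, Sele and Selp there were 20 alternatives. Causes were not tested. Signal near the bottom of the range limits Il6 and Nos2, and on some arrays Pla2g2a, Sele and Selp.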
